A study of Mus musculus with 8 samples.

Results

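The 10 genes described here, through which tissue stroma supports immune cells, were measured in mouse lung fibroblasts sorted by surface CD249: 9 cytokines and growth factors (Csf1, Il34, Csf2, Kitl, Il33, Tslp, Il7, Il15 and Tnfsf13b) and 1 receptor by which fibroblasts sense interleukin 1 (Il1r1). They were picked by symbol, and all 10 of 10 were found among the 25509 genes measured. The cells came from lungs of wild-type C57Bl6/J mice. Lung cells without CD45, CD326 and CD31, the surface antigens of leukocytes, epithelium and endothelium, were divided into CD249+ and CD249− fibroblasts, with equal numbers taken from each lung, and 4 libraries of CD249+ and 4 of CD249− fibroblasts came from mice 2, 7, 8 and 10. CD249 is the peptidase encoded by Enpep. The deposited columns call the CD249+ fraction LIF and the CD249− fraction Ctrl without spelling these out, and no age is stated for the mice.

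Macrophages need signals through Csf1r, mast cells and some progenitors need Kit ligand, and lymphocytes depend on interleukin 7, interleukin 15 and the B cell factor BAFF. Fibroblasts, endothelium and epithelium of the lung make several of these factors, and the alarmins interleukin 33 and TSLP, which act on group 2 innate lymphoid cells, also come from such structural cells. Interleukin 1 in turn acts on stroma through the receptor encoded by Il1r1 together with its accessory chain, and NF-κB is the pathway it switches on.

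The RNA of CD249+ cells held far more of the BAFF gene Tnfsf13b and of Il34 than that of CD249− cells, 7.83-fold and 7.61-fold. Tslp was 2.90-fold and Il1r1 2.00-fold higher, and Kitl fell to 0.494 of its level in CD249− cells. Csf1, Il33, Il15 and Il7 did not pass the test, and Csf2 was too low to be tested. Levels are CPM, counts scaled to a library total and further between libraries by the trimmed mean of M values (TMM). Calls are those of edgeR's quasi-likelihood test below 0.05 after Benjamini-Hochberg adjustment over 14524 genes, and fold changes are CD249+ over CD249−. Of the 9 members that passed the low-count filter, 4 were called higher, 1 was called lower and 4 did not pass, while 16.9% of all genes tested were called higher and 13.9% lower. Fewer cells of a type and less RNA per cell cannot be told apart in such bulk samples. The groups did not overlap for 5 of the 10 genes, 4 higher and 1 lower, while the same held for 17.8% of genes tested on the higher side and 15.8% on the lower. With mouse as a block the same 5 members were called, among 19.3% of genes higher and 17.1% lower. In mice 2 and 10 alone 2 members were called higher and 0 lower, among 3.88% and 0.668% of genes, with 2 libraries a fraction. Leaving out mouse 7 gave 4 members higher and 0 lower, among 12.3% and 9.20% of genes, and leaving out mouse 8 gave 3 higher and 0 lower, among 12.2% and 8.24%. With at least 10 CPM required in the higher fraction 2 members were higher and 1 lower, among 21.4% and 18.5% of genes. P-values measure the spread between the 4 libraries of each fraction.

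**Figure D1:**
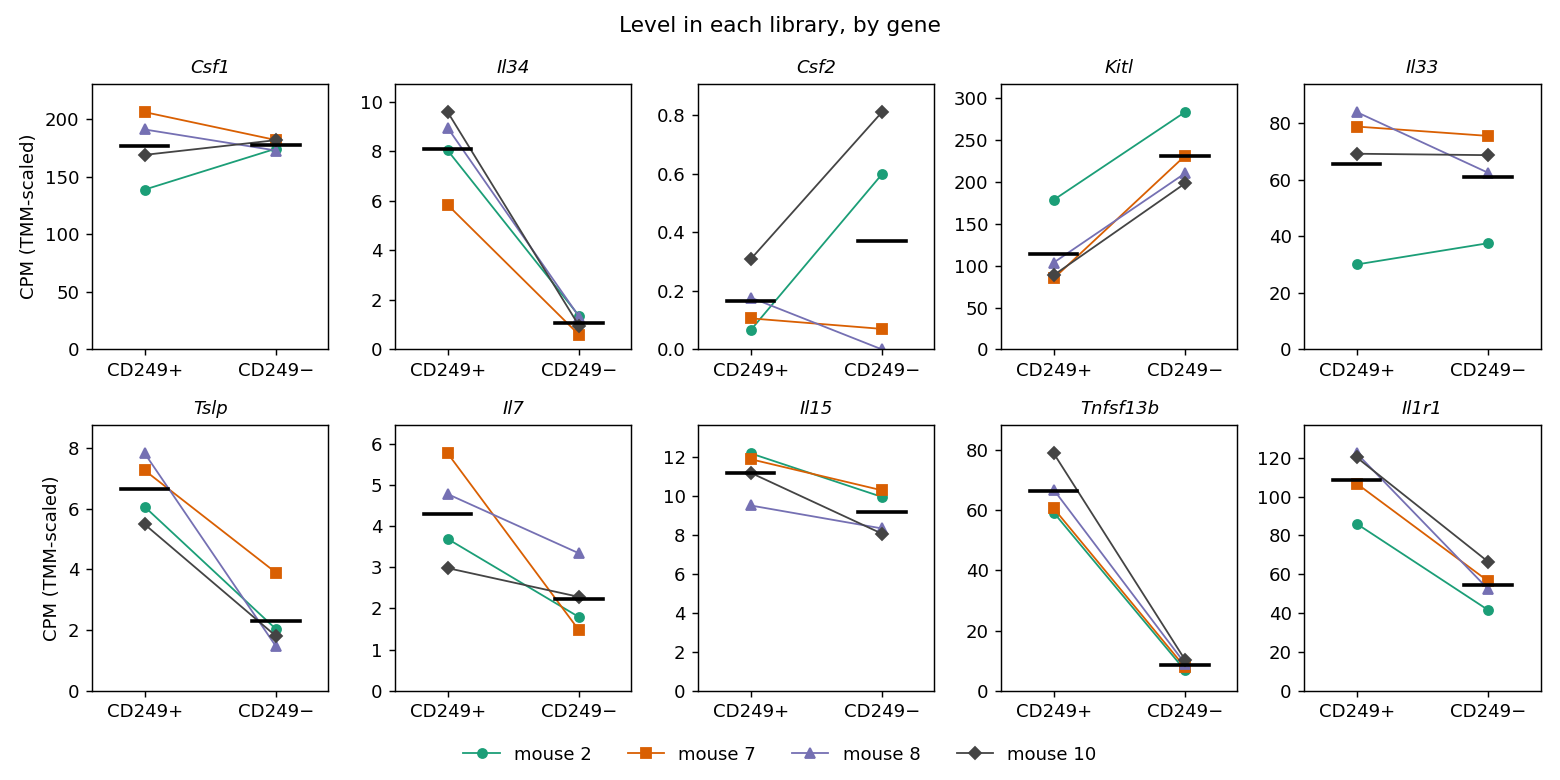
Level of each gene (CPM, scaled by TMM, axes starting at 0) in the 4 CD249+ libraries on the left and the 4 CD249− libraries on the right of each panel, with lines joining libraries of a mouse and black bars for the means of 4. Tnfsf13b, Il34, Tslp and Il1r1 were higher in every CD249+ library than in any CD249− library, Kitl was lower in every CD249+ library, and the other 5 genes overlapped.

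Libraries held 23011383 to 31906414 counts. Enpep, the gene of the sorting antigen, measured 175 to 329 CPM in CD249+ and 5.13 to 17.3 CPM in CD249− libraries, in the direction of the labels. Both fractions carried fibroblast collagens, and all 8 of 8 listed ones were called higher in CD249+ cells, with sums of 14073 to 24859.9 CPM in CD249+ and 4225 to 10791 CPM in CD249− libraries. Alveolar fibroblast markers were called higher for 9 of 9 genes (median log2 fold change 3.68, sums of 6390.3 to 12781 CPM in CD249+ and 574 to 1080.2 CPM in CD249− libraries), pericyte markers for 6 of 6 (3.21, sums of 421 to 653 CPM in CD249+ and 111 to 182 CPM in CD249− libraries) and smooth muscle markers for 5 of 6 (1.62, sums of 739 to 1487 CPM in CD249+ and 146 to 653 CPM in CD249− libraries). Mesothelial markers were called lower for 4 of 5 tested (-2.56, sums of 22.8 to 50.5 CPM in CD249+ and 75.1 to 189 CPM in CD249− libraries), and of 8 adventitial fibroblast markers 2 were called higher and 2 lower. Transcripts of cells outside the gate were also present. Of the genes of the gate antigens, Pecam1 (CD31) averaged 611 CPM in CD249+ and 1667 CPM in CD249− cells (log2 fold change -1.45, edgeR adjusted p = 0.0017), Ptprc (CD45) 63.1 CPM in CD249+ and 123 CPM in CD249− cells (-0.96, adjusted p = 0.0635), and Epcam (CD326) 7.98 CPM in CD249+ and 7.46 CPM in CD249− cells (0.10, adjusted p = 0.894). All 12 of 12 endothelial markers were called lower in CD249+ cells and none was at 0 in any library, with sums of 4632 to 8780.1 CPM in CD249+ and 14076 to 19239.6 CPM in CD249− libraries. Sums of 14 leukocyte markers were 213 to 336 CPM in CD249+ and 243 to 690.1 CPM in CD249− libraries. EdgeR called 0 of them, with 5 under 0.05 before adjustment, limma-voom called 0 and DESeq2 called 3. Of 9 alveolar type 2 epithelial markers edgeR called 6 higher, DESeq2 3 and limma-voom 1, and their summed level reached 11474 CPM in the CD249+ library of mouse 10, against 584 to 1311 CPM in the other 3 CD249+ libraries and 234 to 813 CPM in CD249− libraries. The part of these cells in the results for the 10 genes was not tested.

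RefSeq promoter sequences (GRCm38.p6) were read for 6 of the 10 genes, and Tslp was among those left out. Of these 6, 3 are shown because they stand for the 3 outcomes. They are Tnfsf13b, with the largest rise, Kitl, the gene that fell, and Csf1, at a like level in both fractions. Each runs from 250 bases before to 50 bases after an annotated start site, 5′ to 3′ on the strand of the gene, with these motifs in capitals on either strand: the AP-1 site TGANTCA, the NF-κB motif, the GC box GGGCGG and the TATA box TATAAA.
Tnfsf13b, chr8:10006217-10006516, plus strand: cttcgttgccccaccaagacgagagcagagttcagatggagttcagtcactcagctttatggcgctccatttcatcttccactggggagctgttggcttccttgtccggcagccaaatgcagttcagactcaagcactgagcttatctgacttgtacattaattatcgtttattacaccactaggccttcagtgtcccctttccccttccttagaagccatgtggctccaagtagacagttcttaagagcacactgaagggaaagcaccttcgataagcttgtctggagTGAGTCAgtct
Kitl, chr10:100015571-100015870, plus strand: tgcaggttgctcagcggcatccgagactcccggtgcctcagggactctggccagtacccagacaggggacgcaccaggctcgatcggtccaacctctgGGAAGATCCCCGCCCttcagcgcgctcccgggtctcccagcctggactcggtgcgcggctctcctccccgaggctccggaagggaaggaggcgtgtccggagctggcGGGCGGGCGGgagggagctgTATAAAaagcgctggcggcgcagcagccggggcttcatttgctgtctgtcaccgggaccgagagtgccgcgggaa
Csf1, chr3:107760420-107760719, minus strand: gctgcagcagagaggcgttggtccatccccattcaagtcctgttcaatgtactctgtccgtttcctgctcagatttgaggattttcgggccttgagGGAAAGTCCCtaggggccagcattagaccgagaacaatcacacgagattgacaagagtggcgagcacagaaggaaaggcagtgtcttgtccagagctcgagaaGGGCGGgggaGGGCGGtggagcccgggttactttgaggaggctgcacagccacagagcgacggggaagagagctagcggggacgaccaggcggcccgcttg
With the start site counted as 0, the Tnfsf13b window held an AP-1 match at 39 to 45 and no other of the 4 motifs, and a second annotated start lies 166 bases downstream. The Kitl window had a TATA box at -25 to -20, an NF-κB match at -152 to -143 that overlaps a GC box by 1 base, and GC boxes at -45 to -40 and -41 to -36, which overlap each other. The Csf1 window had an NF-κB match at -154 to -145 and GC boxes at -51 to -46 and -41 to -36. Among 32851 windows of this length, 7.8% held the AP-1 letters, 8.5% the NF-κB motif, 35.7% a GC box and 13.6% a TATA box. The windows also differed in base composition: CpG dinucleotides numbered 6 for Tnfsf13b, 28 for Kitl and 16 for Csf1, against a median of 7 over all windows. Il1r1, called higher as well, is not shown. The window of its first annotated start had none of the 4 motifs and 5 CpG. That of its second start had an NF-κB match at -232 to -223, GC boxes at -61 to -56, 5 to 10 and 26 to 31, and 14 CpG. These matches are letters in a window, and no binding was measured here.

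Csf1 and Il34 encode the ligands of the macrophage receptor Csf1r. Csf1 (ENSMUSG00000014599.10, chromosome 3, 107741048 to 107760469, minus strand, GRCm38) measured 139, 206, 191 and 169 CPM in CD249+ cells from mice 2, 7, 8 and 10, against 175, 182, 173 and 182 CPM in CD249− cells. The CD249+ values spread on both sides of the CD249− ones, which lay close together, and 2 of 4 mice were higher. Its log2 fold change was -0.01 (SE 0.12, 95% interval -0.28 to 0.26, edgeR adjusted p = 0.954). Il34 (ENSMUSG00000031750.15, chromosome 8, 110741829 to 110805924, minus strand) gave 8.04, 5.84, 8.95 and 9.59 CPM in CD249+ cells, against 1.36, 0.595, 1.33 and 0.96 CPM in CD249− cells. The lowest CD249+ library, that of mouse 7, was still above every CD249− library, and mouse 7 was also the lowest in CD249− cells. Il34 rose by 2.93 on the log2 scale (SE 0.36, 95% interval 2.13 to 3.73, edgeR adjusted p = 0.000265), in 4 of 4 mice. The CD249− values rest on 17 to 41 counts per library, and the exons of Il34 share 22 and 75 bases with the opposite-strand genes Gm15894 and Gm15895, whose reads cannot be told apart in libraries that do not mark strand.

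The balance of these ligands differed between the fractions. Per kilobase of exon there was 6.42, 13.1, 7.92 and 6.54 times as much Csf1 as Il34 in CD249+ cells from mice 2, 7, 8 and 10, against 47.6, 113.5, 48.1 and 70.4 times in CD249− cells. Csf1 exceeded Il34 in every library, and the ratios of the fractions did not overlap. The log2 ratio of their CPM, with 0.5 CPM added to each, averaged 4.37 ± 0.46 in CD249+ and 6.87 ± 0.39 in CD249− cells (SD, n = 4), a difference of -2.50 (two-sided exact permutation p = 0.0286, the smallest that 4 against 4 libraries allow). Paired by mouse, the difference was the same and the exact sign-flip permutation p was 0.125, the smallest that 4 pairs allow. Because Csf1 was at a like level in both fractions, the ratio restates the Il34 difference and is not a separate result. Il34 values that did not overlap, beside a level Csf1, lead to these smallest p-values, which add no support.

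Csf2, the gene of granulocyte-macrophage colony-stimulating factor (ENSMUSG00000018916.5, chromosome 11, 54247271 to 54249667), on which alveolar macrophages depend, was near the detection floor. It had 2, 3, 5 and 9 counts in CD249+ cells from mice 2, 7, 8 and 10 and 18, 2, 0 and 27 counts in CD249− cells. Its exons share 96 bases with the opposite-strand gene Gm12223. The values overlapped, the low-count filter removed the gene, and a difference was not detectable at this depth.

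Kitl, the gene of stem cell factor, the ligand of the receptor Kit (ENSMUSG00000019966.17, chromosome 10, 100015630 to 100100416), was the member that fell. It measured 179, 84.9, 104 and 88.8 CPM in CD249+ cells from mice 2, 7, 8 and 10, against 284, 231, 211 and 198 CPM in CD249− cells. Every CD249+ library lay below every CD249− library, and mouse 2 was the highest in both fractions. The log2 fold change was -1.02 (SE 0.23, 95% interval -1.54 to -0.49, edgeR adjusted p = 0.00852), lower in 4 of 4 mice by 0.66 to 1.44. Endothelium also makes Kitl. The 12 endothelial markers moved in the same direction, with a median log2 fold change of -1.45, and among CD249+ libraries that of mouse 2, the highest for Kitl, also had the highest endothelial sum, 8780.1 CPM, against 4632 to 4999.5 CPM in the other CD249+ libraries. The part of endothelial RNA in the Kitl difference was not tested. Leaving out mouse 7 or mouse 8 ended the call (edgeR adjusted p = 0.0565 and 0.0513, log2 fold changes -0.90 and -1.02).

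**Figure D2:**
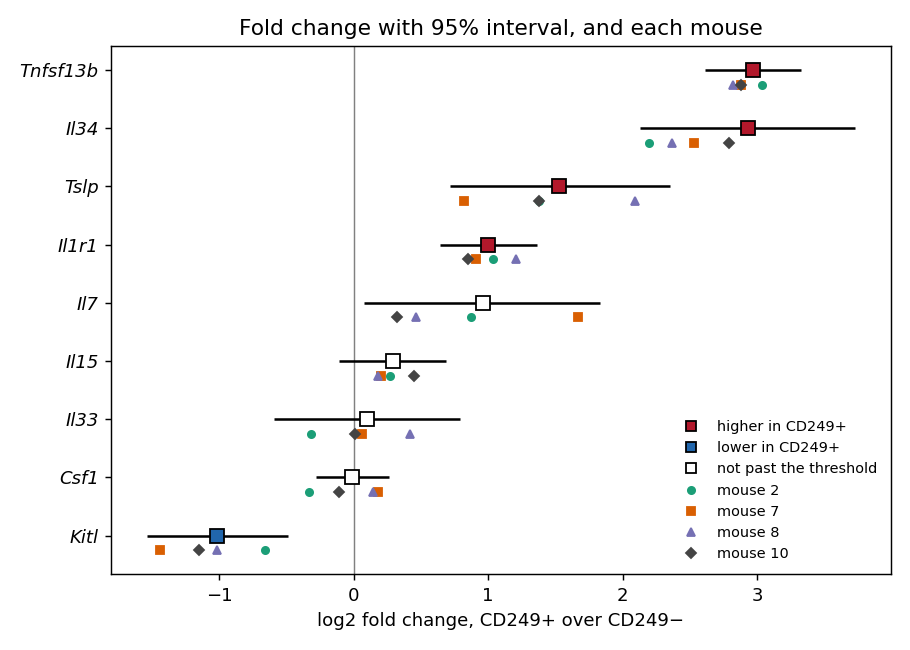
Log2 fold change of the 9 tested genes, CD249+ over CD249− (squares, red for called higher, blue for called lower, white for not past the threshold), with 95% intervals as lines and the log2 ratio of each mouse as small symbols below. The intervals of Tnfsf13b and Il34 lie above 2 on this axis, and those of Il15, Il33 and Csf1 include 0.

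Of the alarmins, Tslp was called higher and Il33 was not. Il33, a nuclear cytokine released from damaged cells (ENSMUSG00000024810.16, chromosome 19, 29925114 to 29960718), measured 30.0, 78.7, 83.8 and 69.1 CPM in CD249+ cells from mice 2, 7, 8 and 10, against 37.5, 75.4, 62.4 and 68.6 CPM in CD249− cells. Both fractions of mouse 2 were low, and the spread between mice was wider than that between fractions. The log2 fold change of 0.10 (SE 0.31, 95% interval -0.59 to 0.79, edgeR adjusted p = 0.839) did not pass. Tslp, thymic stromal lymphopoietin (ENSMUSG00000024379.3, chromosome 18, 32815383 to 32819797), gave 6.06, 7.26, 7.82 and 5.48 CPM in CD249+ cells, against 2.03, 3.89, 1.46 and 1.80 CPM in CD249− cells. The fractions did not overlap, and the CD249− library of mouse 7 came closest to the CD249+ ones. Tslp rose by 1.53 on the log2 scale (SE 0.36, 95% interval 0.72 to 2.35, edgeR adjusted p = 0.00991), in 4 of 4 mice, but did not pass once mouse 8 was left out (edgeR adjusted p = 0.0641, log2 fold change 1.29). The difference between the changes of Tslp and Il33 was not tested.

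Of the lymphocyte factors, Tnfsf13b was called higher, and Il7 and Il15 did not pass. Tnfsf13b encodes BAFF, on which mature B cells depend (ENSMUSG00000031497.8, chromosome 8, 10006467 to 10039072). It measured 59.2, 60.6, 66.8 and 78.9 CPM in CD249+ cells from mice 2, 7, 8 and 10, against 6.77, 7.78, 9.01 and 10.3 CPM in CD249− cells. The fractions stood far apart, and both fractions ordered the mice alike. The log2 fold change was 2.97 (SE 0.16, 95% interval 2.61 to 3.33, edgeR adjusted p = 3.28e-06), rank 374 from the top of 14524 genes, and the mice gave 2.82 to 3.04. Leaving out single libraries or mice moved it between 2.88 and 3.08. Leukocyte markers, whose cells include other BAFF sources, had a median log2 fold change of -0.82, and their part in the Tnfsf13b difference was not tested.

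Il7, made by stroma and lymphatic endothelium for lymphocyte survival (ENSMUSG00000040329.14, chromosome 3, 7569994 to 7613760), was low. Mice 2, 7, 8 and 10 gave 3.69, 5.77, 4.78 and 2.98 CPM in CD249+ cells, against 1.79, 1.47, 3.34 and 2.28 CPM in CD249− cells. It was higher in 4 of 4 mice, yet the fractions overlapped through the CD249+ library of mouse 10 and the CD249− library of mouse 8. The log2 fold change of 0.96 (SE 0.39, 95% interval for this gene alone 0.08 to 1.83) did not pass after adjustment (edgeR adjusted p = 0.0941), while DESeq2, which called 18.2% of its genes higher and 14.6% lower, called it (0.97, adjusted p = 0.0361). Il7 shares 105 exonic bases with the opposite-strand gene Gm16685. Il15, which sustains natural killer and memory CD8 T cells (ENSMUSG00000031712.8, chromosome 8, 82331632 to 82403222), gave 12.2, 11.9, 9.52 and 11.2 CPM in CD249+ cells, against 9.96, 10.3, 8.34 and 8.07 CPM in CD249− cells. Each mouse was slightly higher in CD249+ cells and the fractions overlapped (log2 fold change 0.29, SE 0.18, 95% interval -0.11 to 0.69, edgeR adjusted p = 0.256).

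Il1r1, the signalling receptor of interleukin 1 alpha and beta (ENSMUSG00000026072.12, chromosome 1, 40225080 to 40317257), measured 86.0, 107, 122 and 120 CPM in CD249+ cells from mice 2, 7, 8 and 10, against 41.6, 56.5, 52.4 and 66.5 CPM in CD249− cells. No values overlapped, and mouse 2 was lowest in both fractions. It rose by 1.00 on the log2 scale (SE 0.16, 95% interval 0.64 to 1.36, edgeR adjusted p = 0.00121), with single mice between 0.85 and 1.21.

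Compared per length, as CPM per kilobase of annotated exon, the order of the 10 genes differed between the fractions. In CD249+ cells Csf1 was first at 33.4 ± 5.54, followed by Il33 at 22.7 ± 8.44, Kitl at 19.3 ± 7.43 and Il1r1 at 17.1 ± 2.63 (SD, n = 4). Libraries of neighbours in this order overlapped. Tnfsf13b came next at 9.66 ± 1.30, apart from Il1r1 above it and from Tslp below it, at 5.0 ± 0.806. Il15 at 4.95 ± 0.524 and Il34 at 4.14 ± 0.837 overlapped with Tslp, and Il7 at 0.760 ± 0.216 and Csf2 at 0.205 ± 0.133 closed the order (SD, n = 4). In CD249− cells Kitl at 39.1 ± 6.37 and Csf1 at 33.7 ± 0.916 were first and overlapped. Il33 at 21.1 ± 5.73, Il1r1 at 8.53 ± 1.62 and Il15 at 4.05 ± 0.493 followed, each apart from the next (SD, n = 4). Tslp at 1.72 ± 0.818, apart from Il15, overlapped with Tnfsf13b at 1.23 ± 0.223. Il34 at 0.543 ± 0.185 was apart from Tnfsf13b, and Csf2 at 0.462 ± 0.496 and Il7 at 0.392 ± 0.144 followed (SD, n = 4). Il34, Csf2 and Il7 overlapped in turn, and Csf2, at 1.01 in mouse 10, also overlapped with Tnfsf13b, whose lowest library had 0.986.

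The summed level of the 9 cytokines per kilobase was close in both fractions, 100.1 ± 7.90 in CD249+ and 102.3 ± 4.97 in CD249− cells (SD, n = 4), while its makeup differed. Kitl was 33.5%, 13.8%, 16.2% and 15.4% of that sum in CD249+ cells from mice 2, 7, 8 and 10, against 46.7%, 35.9%, 36.6% and 33.5% in CD249− cells. The CD249+ library of mouse 2 lay at the CD249− level of mouse 10, and the other 3 CD249+ libraries were well below. Tnfsf13b was 9.69% ± 1.47 of the sum in CD249+ and 1.21% ± 0.255 in CD249− cells, and Il34 was 4.16% ± 0.931 in CD249+ and 0.536% ± 0.196 in CD249− cells. Csf1 held 33.2% ± 3.40 in CD249+ and 33.0% ± 1.29 in CD249− cells (SD, n = 4). These shares are descriptions without a test.

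**Figure D3:**
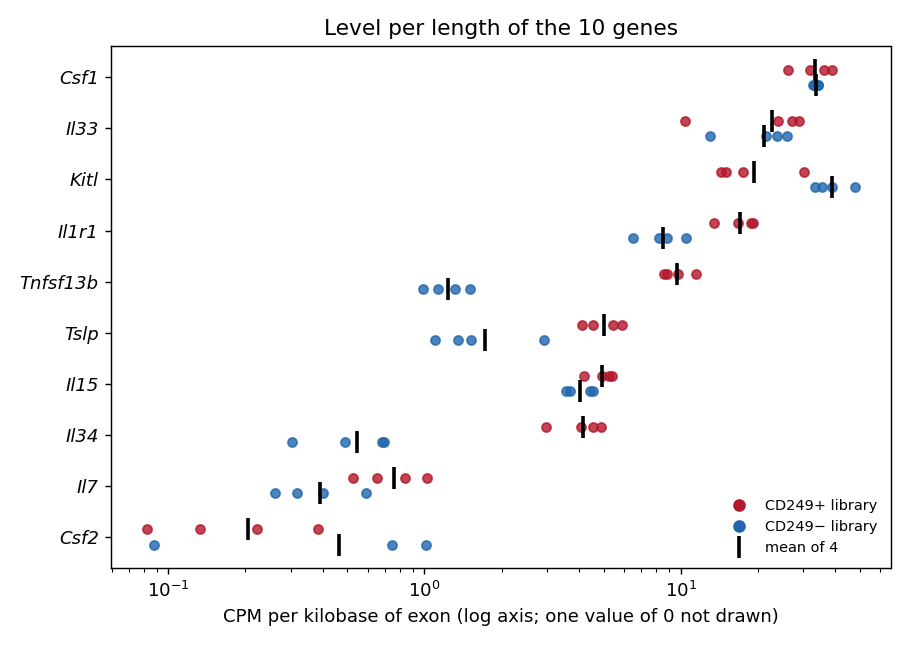
CPM per kilobase of exon on a log axis for the 10 genes, ordered by their mean in CD249+ cells, with red points for CD249+ libraries, blue points for CD249− libraries and black ticks for means of 4. Tnfsf13b, Tslp and Il34 stand apart between the fractions, while Csf1, Il33 and Il15 overlap.

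Because collagen transcripts were more abundant in CD249+ libraries, each gene was also expressed relative to the mean log2 CPM of 8 collagen genes of the same library, which was higher in CD249+ cells by 1.83, with 0.5 CPM added to each value. On this scale Tnfsf13b gave -4.20, -4.83, -4.75 and -4.53 in CD249+ cells from mice 2, 7, 8 and 10, against -5.31, -5.92, -5.47 and -5.92 in CD249− cells. It was the member that remained higher without overlap, by 1.08 log2 units, as did 1.50% of all genes tested. Il34 overlapped on this scale, with -7.55 ± 0.45 in CD249+ and -8.19 ± 0.77 in CD249− cells, and so did Tslp, with -7.80 ± 0.36 in CD249+ and -7.39 ± 0.66 in CD249− cells (SD, n = 4). The other 7 were lower in every CD249+ library than in any CD249− library, as were 79.8% of genes, and their differences ran from -0.82 for Il1r1 to -2.89 for Kitl. Csf2 is among these 7, but it measured at most 0.81 CPM, so with 0.5 CPM added its value mainly follows the collagen mean. Its CD249− library of mouse 8, with 0 counts, still gave -9.72, above every CD249+ library. The separation of Csf2 on this scale therefore shows no difference in Csf2 itself. With 0.5 CPM added, another fibroblast gene as the scale changed the sign for Il34 and Tslp, whose differences on the collagen scale were 0.65 and -0.41. Relative to Pdgfra, which itself rose by 2.66, Tnfsf13b differed by 0.23 and Il34 by -0.20. Relative to Col1a1 Tnfsf13b differed by 1.51 and Tslp by 0.016. For Il34 the added 0.5 CPM is close to its CD249− levels of 0.595 to 1.36 CPM and pulls its differences down. The edgeR log2 fold change of Il34, 2.93, exceeded that of Pdgfra, so the sign of Il34 on the Pdgfra scale depends on the added amount.

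**Figure D4:**
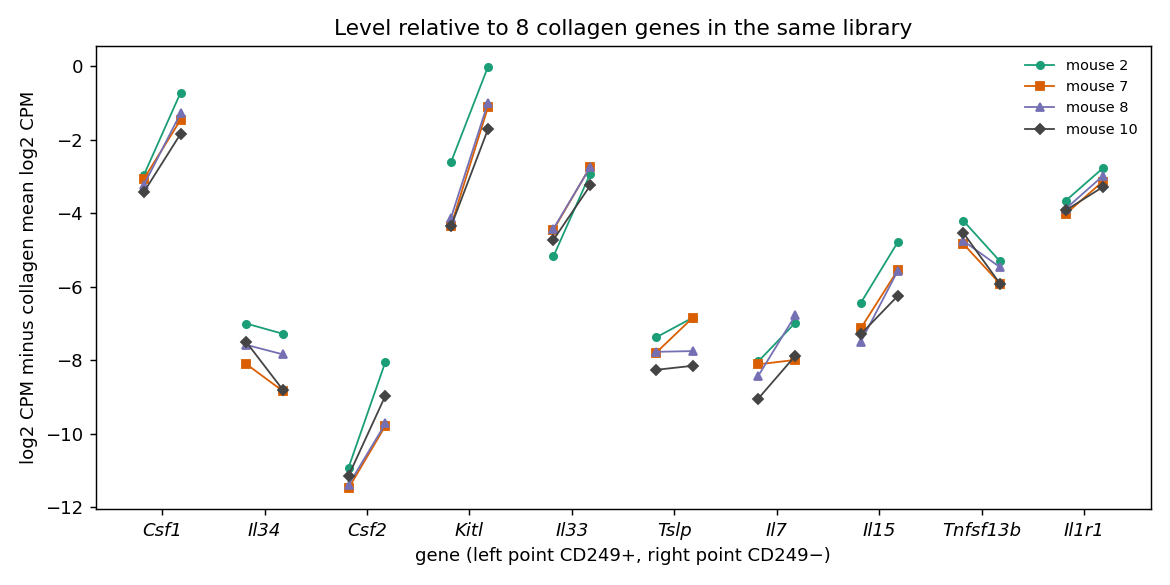
Log2 CPM of each gene minus the mean log2 CPM of 8 collagen genes in the same library, with the CD249+ library on the left and the CD249− library of the same mouse on the right of each pair. Lines slope down from left to right in all 4 mice for Tnfsf13b and Il34, and up in all 4 mice for the other 8 genes.

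Of 15 genes of receptors for these cytokines 14 were tested, and 1 was called higher, 5 lower and 8 not at all, where 16.9% of all genes were called higher and 13.9% lower. The list had a median log2 fold change of -0.72 against -0.02 over all genes tested. Il1rap, the shared accessory chain of the receptors for interleukin 1 and interleukin 33, was the gene that rose, by 1.36 on the log2 scale (edgeR adjusted p = 0.000318), with 48.5 ± 9.73 CPM in CD249+ and 19.0 ± 2.85 CPM in CD249− cells (SD, n = 4). Il1r1 and Il1rap, the chains of the interleukin 1 receptor complex, were thus both called higher. The genes that fell were Il2rg, the common gamma chain (-1.47), Kit (-1.30), the interleukin 15 receptor alpha gene Il15ra (-0.81), the BAFF-family receptor gene Tnfrsf13b (-0.78) and the TSLP receptor gene Crlf2 (-0.77), with edgeR adjusted p from 0.000276 to 0.0174. Leaving out mouse 7 gave 3 genes lower, among 9.20% of all genes. Mice 2 and 10 alone gave 0, among 0.668% of all genes. Tnfrsf13b did not pass once any 1 mouse was left out (edgeR adjusted p = 0.0506 to 0.0749), nor Il15ra without mouse 7 (0.0634). Kit measured 270 ± 109 CPM in CD249+ and 663 ± 154 CPM in CD249− cells (SD, n = 4). Of 9 markers of mast cells and group 2 innate lymphoid cells, Kit among them, 7 were tested, 2 (Kit and Gata3) were called lower and 5 did not pass, with sums of 205 to 464 CPM in CD249+ and 613 to 956 CPM in CD249− libraries. Kit made up most of these sums, at 181 to 428 CPM in CD249+ and 543 to 889 CPM in CD249− libraries, so they mainly restate Kit. The mast cell protease genes were low or at 0: Tpsb2 was at 0 in every library, Mcpt4 reached 0.14 CPM, Cma1 measured 0.425 to 0.79 CPM in CD249+ and 0.432 to 2.25 CPM in CD249− libraries, and Cpa3 0.955 to 1.56 CPM in CD249+ and 0 to 1.33 CPM in CD249− libraries. Csf1r did not pass, at 54.6 ± 13.3 CPM in CD249+ and 82.2 ± 30.4 CPM in CD249− cells (SD, n = 4, edgeR adjusted p = 0.128), nor did the interleukin 33 receptor gene Il1rl1, at 1.14 ± 1.32 CPM in CD249+ and 0.939 ± 1.17 CPM in CD249− cells. The part of the endothelial, leukocyte and mast cell RNA in the receptor levels was not tested.

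The interleukin 1 family and its signalling chain, 18 genes all tested, gave 2 calls higher and 5 lower (16.9% and 13.9% over all genes), with a median log2 fold change of -0.76. Beside Il1rap the receptor kinase gene Irak1 rose slightly (0.32, edgeR adjusted p = 0.0243). Lower were Sigirr, an inhibitor of the receptor family (-1.48), the interleukin 18 binding protein gene Il18bp (-1.15), Irak2 (-0.81), the caspase gene Casp1 (-1.25) and the ligand gene Il1a (-1.21), with edgeR adjusted p from 0.000398 to 0.0248. Sigirr measured 36.1, 16.9, 24.2 and 25.9 CPM in CD249+ cells from mice 2, 7, 8 and 10, against 68.4, 72.0, 71.2 and 76.2 CPM in CD249− cells. The ligand gene Il1b, at -0.75 (adjusted p = 0.236), and the decoy receptor gene Il1r2, at -0.76 (adjusted p = 0.258), did not pass. Il1a did not pass once a single library was removed, CD249+ of mouse 7, 8 or 10, or CD249− of mouse 2 or 8 (edgeR adjusted p = 0.0513 to 0.0675). Neither did Irak1 without any 1 library of mice 7 and 10 (0.0607 to 0.0711). Fits without a library of mouse 7 or 10 left 1 gene called higher, among 2038 to 2230 of all genes. With mouse as a block 8 were called lower, among 17.1% of all genes. Without mouse 8 only 3 were, among 8.24% of all genes, Casp1 then at an edgeR adjusted p of 0.0938.

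Of 22 genes that NF-κB and interleukin 1 are known to induce 21 were tested, and 6 were called higher, 1 lower and 14 not at all (16.9% higher and 13.9% lower over all genes), with a median log2 fold change of 0.25. Vcam1, a leukocyte adhesion molecule, rose by 1.85 (edgeR adjusted p = 0.000767), with 373 ± 28.2 CPM in CD249+ and 103 ± 47.3 CPM in CD249− cells (SD, n = 4). Nfkb1, the gene of the NF-κB subunit p50, fell by 0.63 (adjusted p = 0.000753). The acute phase gene Saa3 gave 3.31 and Lcn2 2.28 (adjusted p = 0.0221 and 0.0232), with Ccl2, Nfkbiz and Mmp3 also called higher. Feedback genes of the pathway did not pass, with Nfkbia at -0.24 and Tnfaip3 at -0.18. Calls of the list other than Vcam1 and Nfkb1 depended on single libraries. Without CD249+ of mouse 7 and of mouse 8, 3 and 2 genes were called higher, among 2087 and 2120 of all genes. Without CD249− of mouse 2 and of mouse 10, 1 and 3 were, among 2221 and 2230, against 2455 in the main fit. Lcn2 gave 1.22 without the CD249+ library of mouse 10 (edgeR adjusted p = 0.0715). That library had the most type 2 cell transcripts, and their part in the Lcn2 difference was not tested. Of 10 dissociation stress genes 4 were also called higher and 6 did not pass, with sums of 13689 to 28242 CPM in CD249+ and 9780.0 to 14601 CPM in CD249− libraries, and their part in these calls was not tested.

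Among other stromal signals to immune cells, 15 of 19 genes were tested, and 5 were called higher, 1 lower and 9 not at all (16.9% higher and 13.9% lower over all genes), with a median log2 fold change of 1.26. Flt3l, the dendritic cell growth factor, measured 26.2, 39.3, 33.2 and 34.7 CPM in CD249+ cells from mice 2, 7, 8 and 10, against 12.9, 14.3, 13.3 and 13.5 CPM in CD249− cells (log2 fold change 1.31, edgeR adjusted p = 0.000142). The fractions did not overlap, and the CD249− libraries lay close together. Gas6, the ligand of the phagocyte receptors Axl and Mertk, rose by 1.87 and Lif by 2.04, with Ccl19 and Pdpn also called higher. Pdpn did not pass in limma-voom (adjusted p = 0.0586), nor in edgeR without CD249+ of mouse 7 or 8 or CD249− of mouse 2 or 8 (adjusted p = 0.0537 to 0.0698). Ccl19 did not pass once mouse 7 or mouse 8 was left out (edgeR adjusted p = 0.0821 and 0.079). In each of these fits 3 genes were called higher, among 12.3% and 12.2% of all genes. The chemokine gene Cx3cl1 fell to 106 ± 33.2 CPM in CD249+ cells, against 262 ± 37.3 CPM in CD249− cells (SD, n = 4), or by 1.31 on the log2 scale (edgeR adjusted p = 0.00092). The CD249+ library of mouse 2 was again the highest of its fraction for Cx3cl1, at 155 CPM, as it was for Kitl and the endothelial sum. The part of endothelial RNA in the Cx3cl1 difference was not tested. Without CD249+ of mouse 7 or CD249− of mouse 8, 2 genes were called lower, among 1590 and 1682 of all genes. With mouse as a block 3 were, among 17.1% of all genes. Cxcl12, a niche chemokine, did not pass (-0.28, adjusted p = 0.122).

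**Figure D5:**
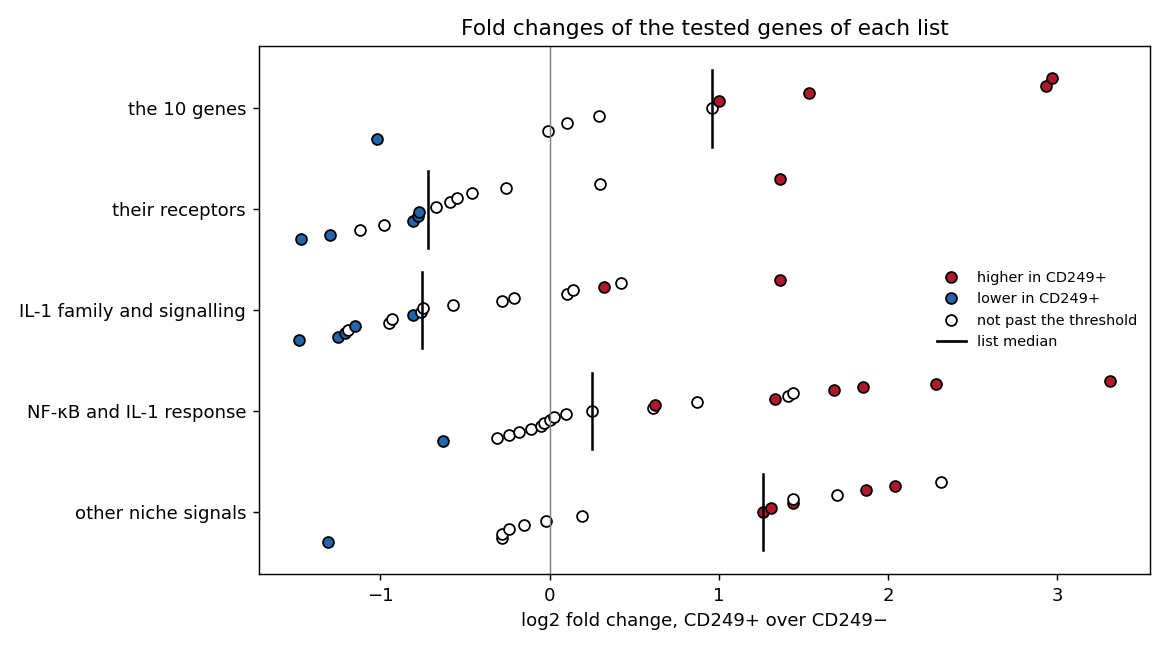
Log2 fold changes, CD249+ over CD249−, of the tested genes of 5 lists, ordered within each list, in red for called higher, blue for called lower and white for not past the threshold, with black lines at the list medians. The receptor and interleukin 1 lists lie mainly below 0, with Il1rap at 1.36 as the rightmost point of both.

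The genes whose levels followed those of the called members most closely over the 8 libraries were found by Pearson's r of log2 CPM among 13448 named genes, as a description over points that share the split into fractions. Tnfsf13b was followed by Mamdc2 (r = 0.9994), Pkd2 (r = 0.999), the polycystin 2 gene, and Ednra (r = 0.9983), the endothelin A receptor gene, which measured 247 CPM in CD249+ and 21.3 CPM in CD249− cells. For Il1r1 they were Cped1 (r = 0.9975), the collagen chaperone gene Fkbp10 (r = 0.9964) and Hspb8 (r = 0.9954). For Kitl they were Specc1 (r = 0.998), Itga6 (r = 0.9944), the integrin alpha 6 gene, and N4bp3 (r = 0.9935). Il34 and Tslp averaged under 10 CPM in both fractions and were not matched.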

How the data were processed

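RNA of sorted lung fibroblasts was made into libraries with SMART-Seq V4 from 10 ng of total RNA and read as 75 bp single reads, without marking strand and without molecular identifiers, per the labels' protocols. The authors deposited estimated counts per gene. Per the submitters' processing notes the tools were RSEM 1.2.28 and STAR 2.6.1, with bcl2fastq 2.20, R 3.6.3 and DESeq2 1.26.0. These notes name a human build although the gene IDs are mouse, so which mouse build was used remains unknown. Of the 25509 genes 18552 had a count. The 92 spike-in rows, all at 0, were left out, and the 12.0% of values that were not whole were rounded. Libraries held 23011383 to 31906414 counts, which are reads and not independent molecules.

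EdgeR 4.0.16 (R 4.3.3) filtered low genes with filterByExpr, leaving 14524, scaled libraries by TMM and compared CD249+ with CD249− by the quasi-likelihood test. Standard errors and 95% intervals come from that fit, which does not pair libraries by mouse. DESeq2 1.42.0 and limma-voom (limma 3.58.1), other scalings and filters, a mouse block and left-out libraries were alternatives. The Csf1 to Il34 ratio was tested by exact permutation. Exon lengths and positions are those of GENCODE M21 (GRCm38), matched by ID ignoring the version (99.0% of IDs). Code was tested on simulated data. The rule for named genes took every member, up to 4 genes with the smallest p of each pathway list, every called gene of a list with 5 or fewer calls, Enpep and the genes of the gate antigens, and for each called member reaching 10 CPM the 3 genes most like it. Other pathway genes were named after their values were seen. The members and lists were chosen with earlier results of these data known. Both fractions of a mouse came from the same lung, so mouse numbers pair the libraries: deviations from the fraction means correlated at 0.382 to 0.578 over 9964 genes within a mouse and at -0.41 to 0.129 between mice.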

Additional observations from a re-analysis of the deposited data

How the results depend on the processing

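Over 21 alternative fits the direction of all 5 called members held wherever they were tested, and leaving out single libraries lost none of their calls. The replicate block by mouse changed no member's call, while over all genes it called 2809 higher and 2489 lower, against 2455 and 2013 without it. Scaling by library size only moved the median of all genes by -0.1 and gave 2106 higher and 2689 lower, so that 43.9% of calls were higher against 54.9%. With a mean of at least 10 CPM required in the higher group, 2 members were called higher, since Tslp and Il34 fell below that level, as did the uncalled Il7. Mice 2 and 10 alone gave 2 members higher and 0 lower, with 570 genes higher and 98 lower, and mice 7 and 8 alone gave 1251 genes lower; with 2 libraries a fraction these fits have few degrees of freedom. Calls lost were those of Tslp without mouse 8 (adjusted p = 0.0641), of Kitl without mouse 7 (0.0565) or mouse 8 (0.0513), of Tslp in mice 7 and 8 alone (0.122) and of Tslp, Kitl and Il1r1 in mice 2 and 10 alone (adjusted p = 0.114, 0.258 and 0.138). Leaving out a library or a mouse gave 3 to 4 members higher and 0 to 1 lower, and 1777 to 2479 genes higher and 1201 to 1979 lower. None of these left-out fits used the mouse block. The uncalled log2 fold change of Csf1 changed sign with relative log expression scaling (0.0024), the 10 CPM filter (0.01), DESeq2 (0.0029) and mice 7 and 8 alone (0.19), and ran from -0.096 to 0.1 in the leave-outs; that of Il33 changed sign with library size only (-0.0086) and mice 2 and 10 alone (-0.099), and ran from -0.058 to 0.36. The cause was not tested. The paired sign-flip test of the Csf1 to Il34 ratio kept the difference of -2.50 with p = 0.125 (exact), the smallest possible. Relative to Pdgfra in place of collagens the differences were -2.63 for Il33, -1.26 for Tslp, -0.20 for Il34, -2.70 for Csf1, -2.95 for Csf2, -3.74 for Kitl, -1.84 for Il7, -2.40 for Il15, 0.23 for Tnfsf13b and -1.67 for Il1r1, and relative to Col1a1 -1.36 for Il33, 0.016 for Tslp, -1.43 for Csf1, 1.51 for Tnfsf13b and -0.40 for Il1r1. Depth limits Csf2, with at most 27 counts, and Il34 in CD249− cells, with 17 to 41 counts. The CPM added before taking logs weighs on both genes in the values relative to collagens or Pdgfra. Those values therefore settle neither the sign for Il34 relative to Pdgfra nor a difference for Csf2.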
